A study of Mus musculus with 39 samples.

Results

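The respiratory chain genes described here are the 97 genes, of 53465 in the deposited expression table, whose names mark them as subunits of complexes I to IV or of the ATP synthase. They were chosen by name alone, without pseudogene names. The rule took Sdha, Sdhb, Sdhc and Sdhd, and names in which a digit follows Ndufa. It also took the prefixes Ndufab, Ndufb, Ndufc, Ndufs, Ndufv, Uqcr, Cox4 to Cox8, Atp5, mt-Nd, mt-Co, mt-Cytb and mt-Atp. Of the 97 genes, 13 are encoded by mitochondrial DNA and 84 by nuclear DNA. The mitochondrial members are 7 subunits of complex I, mt-Cytb of complex III, 3 subunits of complex IV and 2 of the ATP synthase. The nuclear members are 36 genes of complex I, 4 of complex II, 8 of complex III, 18 of complex IV and 15 of the ATP synthase, with 3 others (Atp5s, Cox7a2l and Ndufa4l2).

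The respiratory chain moves electrons from NADH and succinate through complexes I, II, III and IV to oxygen and pumps protons across the inner mitochondrial membrane, and the ATP synthase uses the proton gradient to make ATP. Mitochondrial DNA is transcribed inside the organelle into long RNAs that are then cut and polyadenylated, whereas nuclear subunits are transcribed in the nucleus and imported as proteins, so each complex except complex II is assembled from products of both genomes. Neutrophils are known for few mitochondria and a reliance on glycolysis, monocytes for more respiration, and absorptive epithelium of the intestine for dense mitochondria.

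Polyadenylated RNA of 39 mouse libraries was sequenced, 3 for each of 13 groups, in a series on granulocytic (G) and monocytic (M) myeloid-derived suppressor cells, which are immature and dampen immune responses. Bone marrow of mice labelled C57BL/6 New born-P7 gave single cells of the whole marrow, a G sort and an M sort. Spleens of mice labelled BALB/c immune-deficiency gave a G sort, an M sort and a combined G+M sort. Mice labelled APCmin/+ mutant, which carry a mutant Apc allele that causes intestinal tumours, gave these 3 sorts from spleen and from intestine, and single cells of whole intestine. The sources used here do not give the ages of the spleen and intestine donors, the sort's surface markers, the kind of immune deficiency or the stretch of intestine. Nor do the labels say whether the 3 libraries of a group came from separate animals, so the p-values below measure only the spread between libraries, which may be technical.

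Values are TPM, transcript shares scaled to a total of 1000000 in every library, so that read depth is unknown and counting intervals cannot be given. The number of genes above 0 ran from 21551 to 24910, and no 2 libraries were identical. The sorted intestinal libraries carried little of the marker RNA of their labels. The summed TPM of 11 neutrophil markers was 30.1 to 731 in the 9 intestinal sorts and 96.8 to 214 in unsorted intestine, against 5570 to 133322 in the spleen sorts. That of 9 monocyte markers was 747 to 914 in the intestinal M sort, above the intestinal G sort (223 to 293) and unsorted intestine (478 to 614) and below every spleen M library (1300 to 5523). Among them Ccr2, a chemokine receptor of monocytes, was 8.71 to 11.3 TPM in the intestinal M sort, 2.15 to 6.08 in unsorted intestine and 30.2 to 752 in the spleen M sorts. The summed TPM of 13 epithelial markers was 11984 to 16682 in the intestinal sorts and 11953 to 15374 in unsorted intestine, against 17.6 to 110 in all marrow and spleen libraries. Each comparison with intestine below therefore compares libraries with epithelial RNA at the level of unsorted tissue with libraries nearly without it, and the part of that RNA in the results was not tested. In bulk samples like these, fewer cells of a type and less RNA per cell cannot be told apart.

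The value of a mitochondrial gene in this table depends on its nuclear copies. Chromosome 1 of the mouse reference carries a stretch of mitochondrial DNA, annotated as 7 unprocessed pseudogenes at chr1:24611535-24616197 on the minus strand of mm10. Over every run of 75 bases, the read length, 99.9% of mt-Co3 was also found in Gm28437, 99.5% of mt-Atp6 in Gm10925, 99.5% of mt-Co2 in Gm28661, 98.7% of mt-Nd4l in Gm10222 and 97.8% of mt-Nd3 in Gm28438. Smaller shares were found for mt-Nd4 in Gm28439 (61.5%) and mt-Co1 in Gm29216 (27.5%). The first 60 bases of mt-Co3, at chrM:8607-9390, and of mt-Nd3, at chrM:9459-9806, both on the plus strand, are shown beside those of their copies at chr1:24613189-24613971 and chr1:24612775-24613119, because a 75-base read of mt-Co3 matches both members of the first pair at 709 of 710 positions. Capitals mark the base that differs.

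mt-Co3: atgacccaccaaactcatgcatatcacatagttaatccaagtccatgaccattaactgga
Gm28437: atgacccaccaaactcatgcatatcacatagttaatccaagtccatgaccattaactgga
mt-Nd3: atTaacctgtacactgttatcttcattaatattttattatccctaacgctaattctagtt
Gm28438: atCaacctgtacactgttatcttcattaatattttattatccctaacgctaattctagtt

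The aligned sequences of mt-Co3, mt-Co2, mt-Atp6 and mt-Nd4l did not differ from their copies at any of 783, 681, 678 and 294 bases, and mt-Nd3 differed at 1 of 345. The deposited table divided the RNA of these pairs unequally. The median share kept by the mitochondrial gene was 2.24% for mt-Co2 (0.502 to 5.45% over libraries), 2.6% for mt-Atp6, 3.77% for mt-Co3 (1.03 to 11.5%), 35.8% for mt-Nd3 and 90.7% for mt-Nd4l. Levels of mt-Co2, mt-Co3, mt-Atp6 and mt-Nd3 as deposited are therefore a small and varying part of the RNA that matches them, and each count of mitochondrial members called at 2-fold is given below beside the count with the copies added. The same search of the nuclear members found smaller shares. These are shares of the runs in all annotated transcripts of a gene, so that a copy of a short transcript can show as a small share. They are not on the scale of the mitochondrial shares. The nuclear shares were 35.8% for Atp5g2, also found in Gm10175 (mean 26.2 TPM beside 203 for Atp5g2), 19.6% for Cox7c, 17.2% for Ndufb4, 10.4% for Atp5o and Cox7a2l and 7.2% for Atp5g1. Ndufb4 (mean 20.3 TPM) shared 316 runs with Ndufb4c (90.2), which is 390 bases long. Atp5l (188) shared 235 runs, 3.6% of its own, with Gm10221 (294), which is 309 bases long. Cox7c (212) shared 118 runs with Gm12338 (117), which is 192 bases long. These runs span the copies from end to end. How the authors' counting divided reads within these pairs is uncertain, and the copies of nuclear members were not added to them.

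Summed over members, the mitochondrial and the nuclear genes ranked the groups differently (plot of summed levels). In newborn marrow the 13 mitochondrial members summed to 29335 ± 1271 TPM for all cells, 26296 ± 1204 for G and 21010 ± 801 for M sorts (SD, n = 3, here and in the next sentences). In BALB/c spleen the mitochondrial sum was 93250 ± 1983 for G, 36973 ± 2037 for M and 102017 ± 11481 for combined sorts. In APCmin/+ spleen the mitochondrial sum was 83056 ± 4027 for G, 41806 ± 9303 for M and 90477 ± 15468 for combined sorts. In both spleens each G library lay above each M library, and the combined sort lay with the G sort. The intestinal libraries held the highest mitochondrial sums, 158432 ± 34869 TPM for G, 102173 ± 31552 for M and 152183 ± 7169 for combined sorts and 106295 ± 16204 for all cells. Within the intestinal G sort library 1 stood at 196843 TPM and libraries 2 and 3 at 128774 and 149677. Within the intestinal M sort library 1 stood at 138372 TPM and libraries 2 and 3 at 87648 and 80501, so that M library 1 lay inside the range of the G sort.

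In intestine the sum of the 84 nuclear members was 21891 ± 582 TPM for G, 20590 ± 2142 for combined and 18661 ± 852 for M sorts and 20982 ± 1948 for all cells. All newborn marrow cells, at 19068 ± 828 TPM, overlapped the intestinal M and combined sorts and all intestinal cells, and lay below the intestinal G sort. The marrow sorts followed with 12883 ± 744 TPM for M and 10323 ± 710 for G, and the marrow M libraries lay above those of every spleen sort. The spleen M sorts, at 10548 ± 712 TPM in APCmin/+ and 9894 ± 406 in BALB/c mice, overlapped each other and the marrow G sort. The lowest 4 groups were the spleen G and combined sorts, at 7847 ± 149, 7464 ± 666, 7325 ± 860 and 7046 ± 144 TPM for APCmin/+ combined, BALB/c combined, APCmin/+ G and BALB/c G. These 4 overlapped, and none of their libraries reached the lowest spleen M library.

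The ratio of mitochondrial to nuclear summed TPM, taken without the chromosome 1 copies, ran from 1.42 to 17.1 over the 39 libraries. Its mean was 1.54, 2.56 and 1.63 in all cells, G and M sorts of marrow, 13.2 and 3.75 in G and M sorts of BALB/c spleen, and 11.4 and 3.99 in those of APCmin/+ spleen. In intestine the ratio was 7.26 for G, 5.51 for M and 7.47 for combined sorts and 5.06 for all cells. Taken over mt-Nd1, mt-Nd2, mt-Nd5 and mt-Cytb, which share few or no 75-base runs with nuclear copies, the ratio was 4.71 and 1.36 in G and M sorts of BALB/c spleen and 0.819 and 0.487 in those of marrow. Mitochondrial members made up 2.01 to 19.7% of TPM (median 8.55%), and 4.55 to 39.0% (median 17.7%) with the chromosome 1 copies. Because such shares press on all other genes, the nuclear sum was also rescaled to 1000000 TPM outside mitochondrial genes and copies. It was then 8705 in G and 10700 in M sorts of BALB/c spleen, 8882 and 11600 in APCmin/+ spleen, 10959 and 13530 in marrow, and 32289 and 23723 in intestine.

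**Figure D1:**
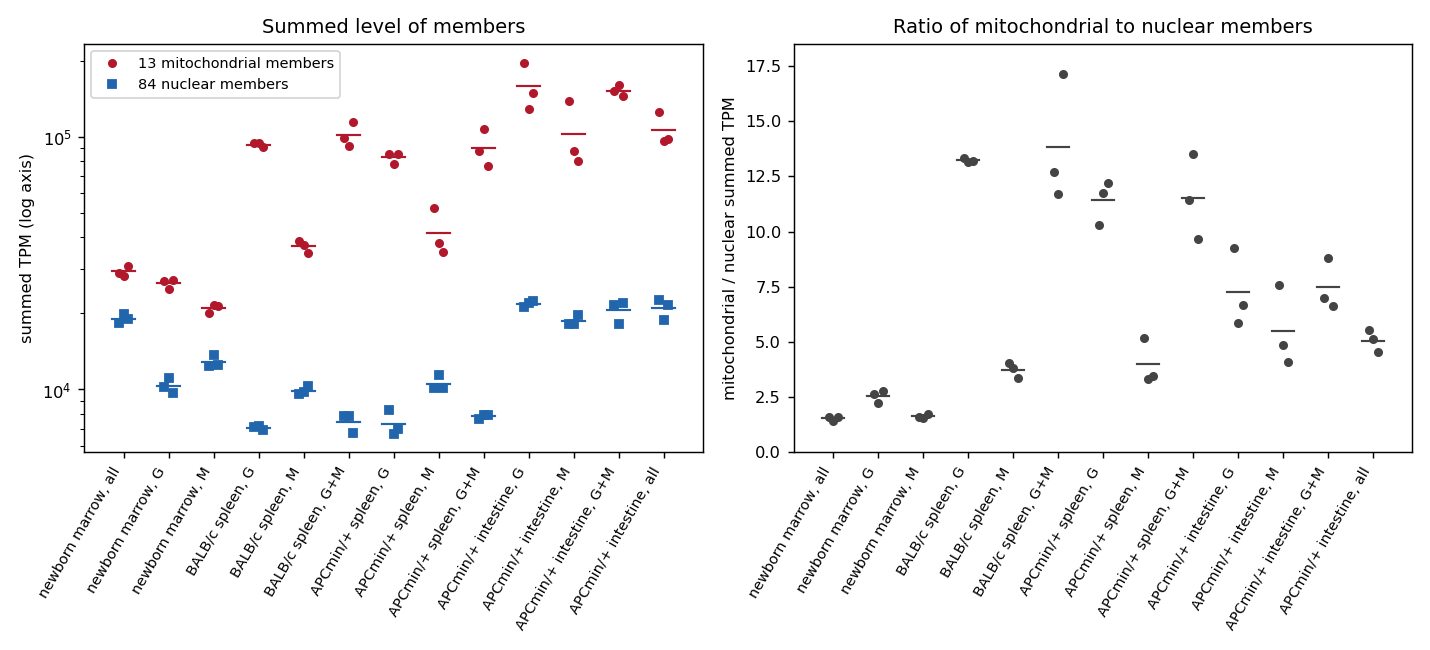
Left, summed TPM (log axis) of the 13 mitochondrial and 84 nuclear members in each library (points) of the 13 groups, with group means (lines). Right, the ratio of the 2 sums on a linear axis from 0, with points for libraries and lines for means. Both panels leave out the chromosome 1 copies. The ratio stands highest in the G and combined sorts of both spleens, with means from 11.4 to 13.8, while nuclear sums are lowest there.

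Among single genes, mean levels over the groups were highest for Atp5b (753 TPM), the catalytic beta subunit of the ATP synthase, in the nuclear set. Cox4i1 (520), Cox5b (435) and Cox6b1 (422) led complex IV, Uqcrh (335) led complex III, Ndufa3 (182) complex I and Sdha (163) complex II. All 13 mitochondrial and 79 of the 84 nuclear members passed a minimum of 1 TPM in at least 3 libraries. Those that did not were Cox4i2, Cox7b2, Cox8b, Cox8c and Ndufa4l2, of which Cox7b2 and Cox8c were listed at 0 in every library.

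Differences were tested with limma on log2(TPM + 1) over 18466 genes, and calls required an adjusted p under 0.05 and a change of 2-fold or more. Fold changes below are on the log2(TPM + 1) scale. Counts of members at an unadjusted p under 0.05 are given without the share over all genes, and are not results about the members. In BALB/c spleen, mitochondrial members were higher in the G sort than in the M sort, and nuclear members were lower. For mt-Cytb, the mitochondrial subunit of complex III, the 3 G libraries gave 13257, 13366 and 12929 TPM and the M libraries 5205, 5278 and 4781. The ranges were far apart, and the log2 fold change was 1.37 (SE 0.17, adjusted p = 3.86e-07). For mt-Co1, the catalytic core of complex IV, levels were 27374, 27487 and 26380 TPM in G against 10753, 10489 and 9919 in M libraries, a log2 fold change of 1.38 (SE 0.20, adjusted p = 5.83e-06). The mt-Co1 call was lost in a limma fit of only these 6 libraries (adjusted p = 0.0799), although the ranges were as far apart. The largest of the 13 log2 fold changes was 1.61 (SE 0.16, adjusted p = 1.28e-08) for mt-Atp8, a small subunit of the ATP synthase, at 16648, 17087 and 16541 TPM against 6128, 5443 and 4966.

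In all, 11 of 13 mitochondrial members were called higher in BALB/c G than M libraries and none lower, where 1.71% of all genes were called higher. Their median log2 fold change was 1.27, beside -0.05 over all genes. The 2 that were not called, mt-Co2 (0.80) and mt-Co3 (0.78), were those with the smallest part of their RNA at the mitochondrial gene besides mt-Atp6, and with copies added all 13 were called, with log2 fold changes of 1.07 to 1.61. Of 79 nuclear members, 0 were called higher and 2 lower, where 3.24% of all genes were called lower, and their median was -0.48. Without the 2-fold minimum, 63 nuclear members were lower and 0 higher, where 13.3% of all genes were lower and 4.73% higher. By that rule 25 of 36 subunits of complex I, 3 of 4 of complex II, 8 of 8 of complex III, 11 of 14 of complex IV and 15 of 15 of the ATP synthase were lower in the G sort.

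The 2 nuclear members called at 2-fold in BALB/c spleen were isoforms of complex IV at low levels. Cox6a2, the isoform of heart and skeletal muscle, had 4.30, 4.24 and 5.73 TPM in the M libraries, the highest in the series, and was lower in the G sort by a log2 fold change of -1.66 (SE 0.24, adjusted p = 9.57e-06). Cox6b2, known as the testis isoform, had 12.7, 10.8 and 9.83 TPM in M against 3.63, 3.04 and 5.67 in G libraries (log2 fold change -1.27, SE 0.36, adjusted p = 0.0121). The Cox6b2 call was lost without G library 2 (adjusted p = 0.0666) and without M library 1 (adjusted p = 0.0511), which left 1 nuclear member called. Among abundant subunits, Cox4i1 fell by 0.73 on the log2 scale (SE 0.10, adjusted p = 3.5e-06), less than 2-fold. The monocyte marker sum was 1332 TPM in G and 4591 in M sorts here, and the neutrophil marker sum 22891 and 6484, while the B and plasma cell sum was 50557 and 54955. The part of these markers' cells in the member differences was not tested.

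In APCmin/+ spleen the same contrast gave 7 mitochondrial members called higher in the G sort and 0 lower, where 0.579% of all genes were called higher. The median log2 fold change of the 13 was 1.02, beside -0.08 over all genes. For mt-Nd3, a small membrane subunit of complex I, the G libraries held 1622, 1467 and 1321 TPM and the M libraries 470, 561 and 411, without overlap (log2 fold change 1.62, SE 0.23, adjusted p = 2.69e-05). For mt-Cytb the G libraries held 11327, 10174 and 11392 TPM and the M libraries 6668, 4535 and 4299 (log2 fold change 1.11, SE 0.17, adjusted p = 3.67e-05). M library 1 stood above the other 2 for mt-Cytb and for the mitochondrial sum (52422 against 37915 and 35080 TPM). With copies added 7 were called again, with mt-Co2 (1.0008) and mt-Co3 (1.05) gained and mt-Atp6 (0.9985) and mt-Nd4l (0.87) lost. Without M library 1 there were 11 mitochondrial calls, and without M library 3 there were 3. Of the nuclear members 0 were called higher and 1 lower (Cox6b2), where 2.64% of all genes were called lower, with a median of -0.55.

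Without the fold minimum, 68 nuclear members were lower in the APCmin/+ G sort and 0 higher, where 16.2% of all genes were lower and 4.62% higher. They included 30 of 36 subunits of complex I, 4 of 4 of complex II, 8 of 8 of complex III and 15 of 15 of the ATP synthase. These calls rest on a spread shared by all 39 libraries. When only the 6 libraries compared were fitted with limma, 0 mitochondrial and 0 nuclear members were called, and 6 and 61 had an unadjusted p under 0.05. With the replicate number as a block, which pairs these samples in the data, 0 of both were called, with 9 and 63 under 0.05 unadjusted. Cox6b2 was 15.5, 14.5 and 6.61 TPM in G against 20.9, 62.1 and 22.0 in M libraries (log2 fold change -1.34, SE 0.36, adjusted p = 0.00896). M library 2, the highest for Cox6b2, also held the highest level of the erythroid marker Klf1 (110 TPM, against 38.1 and 19.5). The Cox6b2 call was lost without M library 2 (adjusted p = 0.1), without G library 3 (adjusted p = 0.0942) and in the fit of 6 libraries (adjusted p = 0.353). The neutrophil marker sum did not separate these sorts, at 25333, 133322 and 59582 TPM in G and 36916, 118677 and 95274 in M libraries. The monocyte marker sum was 1013 TPM in the G and 2587 in the M sort. Mean levels of the B cell marker Cd79a were 782 and 566 TPM in G and M sorts. Those of the plasma cell marker Jchain were 1506 and 1242, and those of the macrophage marker C1qa 270 and 522. For each of these markers the G and M libraries overlapped. Whether cells of these markers had a part in the member differences was not tested.

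In newborn marrow the medians had the same signs and were smaller. None of the 13 mitochondrial and none of the 79 nuclear members were called by limma at 2-fold between G and M sorts, where 6.89% of all genes were called higher and 3.33% lower, and with copies added 0 mitochondrial members were called. An unadjusted p under 0.05 in limma was reached by 6 mitochondrial and 60 nuclear members. The share of all genes at that limit is not given, and cannot be below the shares at an adjusted p in the next sentence. At an adjusted p under 0.05 alone, 4 mitochondrial members were higher and 0 lower, and 1 nuclear member was higher and 48 lower, where 18.8% of all genes were higher and 12.0% lower. The medians were 0.40 for mitochondrial and -0.33 for nuclear members, beside 0.04 over all genes. For mt-Cytb the G libraries held 3031, 2937 and 2937 TPM and the M libraries 2097, 2276 and 2193, without overlap (log2 fold change 0.44, SE 0.17, adjusted p = 0.0433). The nuclear member that was higher was Atp5s (0.51, SE 0.17, adjusted p = 0.0201), a coupling factor associated with the ATP synthase. Without G library 3, 1 mitochondrial member was called at 2-fold. Mean levels of the B cell marker Cd79a were 490 TPM in the G and 68.9 in the M sort, and those of the stromal marker Col1a1 135 and 23.3. Ccr2 was 6.00 TPM in the G and 323 in the M sort, and the neutrophil marker S100a8 33827 and 33803. The part of these markers' cells in the member differences was not tested.

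In intestine the contrast of G and M sorts took another form: both classes of members leaned toward the G sort. The median was 0.65 for mitochondrial and 0.22 for nuclear members, beside 0.14 over all genes. Of the mitochondrial members 1 was called higher, where 0.0704% of all genes were, and 0 lower, where 2.76% were. This was mt-Co3, a core subunit of complex IV, at 4985, 1166 and 2218 TPM in G against 2093, 600 and 190 in M libraries (log2 fold change 1.91, SE 0.59, adjusted p = 0.0454). The mt-Co3 ranges overlapped, and the call was lost when Gm28437 was added (log2 fold change 0.66, adjusted p = 0.0184, below 2-fold). It was lost too without G library 1 or 3 or without M library 2 or 3, each of which left 0 mitochondrial calls, and in the blocked fit of the 6 paired libraries (0 called, 10 with an unadjusted p under 0.05). With copies added, the 13 log2 fold changes lay between 0.46 and 0.68, and 0 were called (plot of mitochondrial members with and without copies).

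At an adjusted p alone, 8 mitochondrial members were higher in the intestinal G sort and 0 lower, where 2.5% of all genes were higher and 3.92% lower. For mt-Cytb the G libraries held 28932, 18064 and 22398 TPM and the M libraries 19595, 12575 and 12056, which overlap (log2 fold change 0.66, SE 0.17, adjusted p = 0.0122). No nuclear member was called by limma at 2-fold, and 38 had an unadjusted p under 0.05. At an adjusted p alone 3 were higher and 0 lower, among them Atp5a1 (log2 fold change 0.35), the alpha subunit of the ATP synthase, and Uqcrc1 (0.33), a core protein of complex III. The nuclear direction depends on the scale. With libraries rescaled by their median ratio the nuclear median was 0.01, beside -0.01 over all genes, and 3 nuclear members had an unadjusted p under 0.05. The B and plasma cell marker sum was 4658 TPM in the G and 65964 in the M sort, and its part in the difference was not tested.

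**Figure D2:**
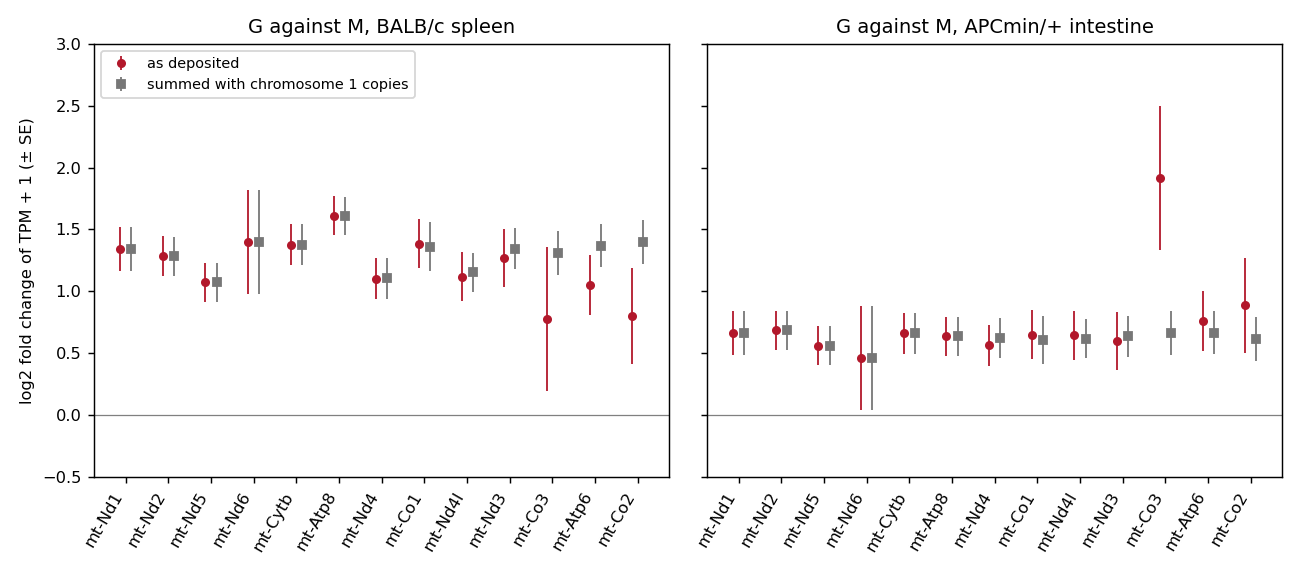
Log2 fold change of TPM + 1 (points, with SE as bars) between G and M sorts for the 13 mitochondrial members in BALB/c spleen (left) and APCmin/+ intestine (right), as deposited and with chromosome 1 copies added. With copies the values draw together, to 1.07 to 1.61 in BALB/c spleen and 0.46 to 0.68 in intestine, and mt-Co3 in intestine moves from 1.91 to 0.66.

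The difference between these contrasts was tested as an interaction, G against M in intestine minus G against M in APCmin/+ spleen (plot of both contrasts). Of the nuclear members 4 were called higher and 0 lower, where 4.92% of all genes were called higher and 3.6% lower. The 4 calls of 79 were thus about the same share as over all genes. Without the fold minimum 71 of 79 were higher and 0 lower, where 19.9% of all genes were higher and 5.45% lower. Their median was 0.78, beside 0.23 over all genes. Atp5a1 had 226, 161 and 176 TPM in spleen G and 295, 318 and 266 in spleen M libraries, then 683, 719 and 743 in intestinal G and 521, 533 and 629 in intestinal M libraries. G libraries lay below M libraries in spleen and above them in intestine, and the difference of the contrasts was 1.01 (SE 0.15, adjusted p = 6.68e-05). The others were Atp5g1 (1.23, SE 0.23, adjusted p = 0.000456), a c-ring subunit of the ATP synthase, Ndufc2 (1.10, SE 0.17, adjusted p = 0.000108), an accessory subunit of complex I, and Uqcr11 (1.03, SE 0.19, adjusted p = 0.000308), a small subunit of complex III.

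Of the mitochondrial members 1 was called in the interaction, mt-Nd3, at -1.02 (SE 0.33, adjusted p = 0.0237), with a median over the 13 of -0.40. Its intestinal levels were 2931, 1832 and 1915 TPM in G and 2338, 1106 and 1152 in M libraries. With Gm28438 added the mt-Nd3 difference was -0.64, and 0 mitochondrial members were called. Without intestinal M library 1 the mt-Nd3 difference was -0.67 (adjusted p = 0.117). The call was also lost without spleen G library 1, spleen M library 3, or intestinal G library 2 or 3, and 2 members were called without spleen M library 1. The count of 4 nuclear calls changed with single libraries: 22 without spleen G library 1, 12 without intestinal M library 3, 11 without spleen M library 3 and 9 without intestinal G library 1. It was 2 without spleen G library 3, spleen M library 2 or intestinal G library 3, and 1 without spleen G library 2. The scale changed it too, to 0 nuclear calls after median-ratio rescaling (median 0.38, beside -0.04 over all genes) and 15 when rescaled to the total outside mitochondrial genes and copies. The fit of only these 12 libraries called 2 nuclear and 0 mitochondrial members, with or without the replicate block, and without the block the adjusted p was 0.0636 for Atp5g1 and 0.0553 for Ndufc2.

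**Figure D3:**
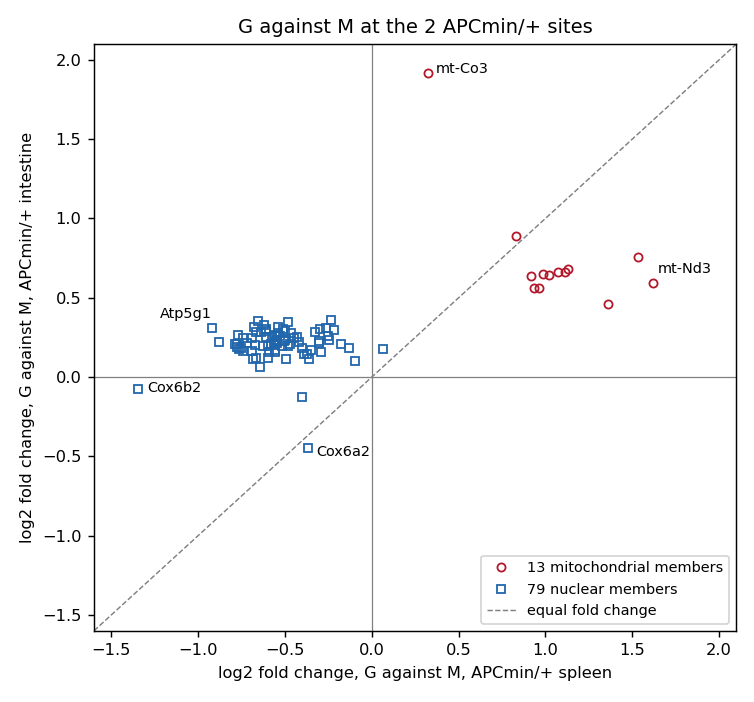
Each point is a member, with its log2 fold change of TPM + 1 between G and M sorts in APCmin/+ spleen (horizontal) and in APCmin/+ intestine (vertical); circles are the 13 mitochondrial and squares the 79 nuclear members tested, and the dashed line marks equal change. Mitochondrial members lie right of 0 and above 0, while nuclear members lie mostly left of 0 and slightly above 0, with medians of -0.55 and 0.22.

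The widest differences in nuclear members were between intestine and spleen of APCmin/+ mice. In the G sorts 62 of 79 nuclear members were called higher in intestine and 0 lower, where 18.7% of all genes were called higher and 22.2% lower. The median was 1.58, beside -0.16 over all genes. In the combined sorts 55 were higher and 1 lower, where 19.5% of all genes were higher and 19.9% lower (median 1.36, beside -0.15). In the M sorts 19 were higher and 1 lower, where 14.2% of all genes were higher and 25.7% lower (median 0.76, beside -0.43). The shift of all genes in the M sorts depended on the scale: after median-ratio rescaling, with the median over all genes at 0.00, 63 nuclear members were called higher and 1 lower. Rescaled to the total outside mitochondrial genes and copies, 38 were higher and 1 lower. At an adjusted p alone, 75, 69 and 75 nuclear members were higher in G, M and combined sorts and 1, 2 and 1 lower, where 29.8%, 22.0% and 30.0% of all genes were higher and 40.2%, 50.7% and 38.4% lower.

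The calls by complex are to be read against the 18.7%, 14.2% and 19.5% of all genes called higher in G, M and combined sorts. Of complex I, 26 of 36 nuclear subunits were called higher in the G sorts and 21 in the combined sorts. In the M sorts 2 of 36 were, a smaller share than over all genes. Complex II had 4, 1 and 3 of 4, complex III 8, 4 and 8 of 8, complex IV 12, 6 and 12 of 14, and the ATP synthase 12, 6 and 11 of 15. The median log2 fold change in the G sorts was 1.98 for complex III, 1.76 for complex IV, 1.69 for complex II and the ATP synthase, and 1.26 for complex I.

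In the ATP synthase, Atp5g3, which encodes a subunit of the proton-driven c-ring, had 772, 775 and 764 TPM in intestinal G libraries against 167, 122 and 115 in spleen G libraries. Its log2 fold change was 2.52 in G (SE 0.12, adjusted p = 3.41e-18), 1.54 in M and 2.09 in combined sorts. Atp5o, part of the stalk, followed at 2.25, 1.25 and 1.79, and Atp5b at 2.00, 1.07 and 1.60. In complex III, Uqcrq, a small subunit, had 393, 431 and 408 TPM in intestinal against 103, 78.3 and 84.2 in spleen G libraries (log2 fold change 2.21, SE 0.10, adjusted p = 3.08e-18). In complex IV, Cox5a, an early-assembling subunit, had 433, 441 and 467 TPM against 123, 93.2 and 92.3 (log2 fold change 2.12, SE 0.12, adjusted p = 2.04e-16). No intestinal library of these 5 genes came within the range of the spleen sort it was compared with. Cox4i1, at 838, 847 and 835 TPM against 285, 253 and 273, rose by 1.63 in the G sorts. Sdha, the flavoprotein of complex II, had the smallest called change of its complex, 1.09 in the G sorts, and lost the call without spleen G library 2 (0.88). Cox7a2l, which joins complexes III and IV into supercomplexes, was not called in any sort (0.19, -0.33 and 0.22), and neither was Atp5s (0.16, 0.05 and 0.35).

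The median log2 fold change of the mitochondrial members was 0.82 in G, 1.17 in M and 0.71 in combined sorts, below that of the nuclear members in the G and combined sorts and above it in the M sorts. Of the 13, 4 were called higher in G (mt-Co3 2.25, mt-Nd4l 1.10, mt-Cytb 1.05, mt-Nd4 1.03), 9 in M and 1 in combined sorts (mt-Co3, 1.78), and none were lower. Of all genes 18.7%, 14.2% and 19.5% were called higher, so that the 1 call in the combined sorts was a smaller share than over all genes. With copies added these counts were 3, 11 and 0. In the limma fit of only the 6 G libraries the mt-Cytb call was lost (adjusted p = 0.0667). In the G sorts, 1 member was called without intestinal G library 1, the library with the highest mitochondrial sum. In the combined sorts the count was 2 without spleen library 1, 4 without spleen library 2 and 0 without spleen library 3. Rescaled to the total outside mitochondrial genes and copies, 8 and 6 were called in the G and combined sorts.

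**Figure D4:**
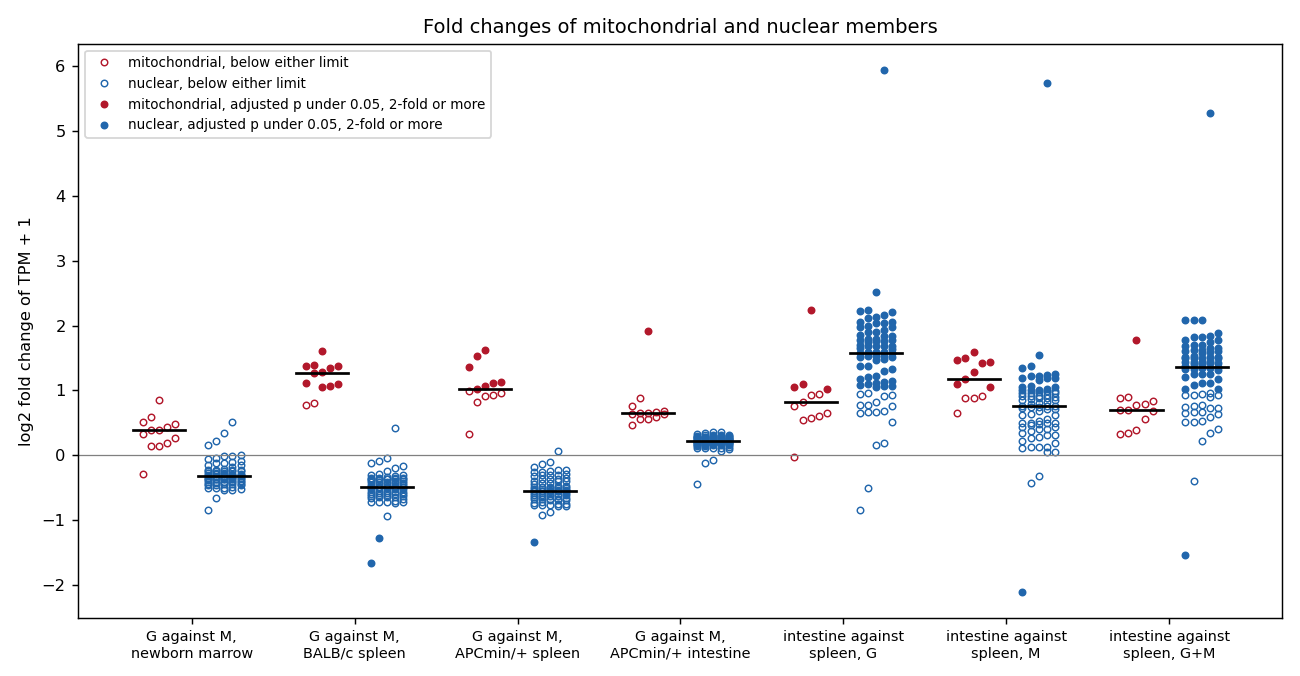
Log2 fold change of TPM + 1 for each mitochondrial (red) and nuclear (blue) member in 7 comparisons, with filled circles for called members, open circles for the rest, and black lines for medians. The classes part in the G against M contrasts of both spleens (medians 1.27 and -0.48 in BALB/c, 1.02 and -0.55 in APCmin/+ spleen), and both lie above 0 in intestine against spleen; the highest blue points are Cox7a1.

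The largest log2 fold change of any member in these 3 comparisons was that of an isoform of complex IV. Cox7a1, known as the isoform of heart and skeletal muscle, had 119, 82.5 and 82.8 TPM in intestinal G libraries, 105, 79.2 and 78.5 in M, 62.0, 58.9 and 68.4 in combined and 81.2, 69.1 and 68.6 in all intestinal cells. It was at most 2.89 TPM in any marrow or spleen library. Its log2 fold change against spleen was 5.94 in G, 5.74 in M and 5.28 in combined sorts (SE 0.28 each, adjusted p = 5.99e-18, 1.97e-17 and 1.1e-16). Its widespread partner Cox7a2 had 337, 335 and 331 TPM in intestinal and 96.7, 98.7 and 96.5 in spleen G libraries, a log2 fold change of 1.77 (SE 0.09, adjusted p = 7.35e-17). Cox6b2 went the other way: 3.78 to 8.87 TPM in all intestinal libraries, with log2 fold changes of -2.10 in M (adjusted p = 6.64e-06) and -1.53 in combined sorts (adjusted p = 0.000434). In the fit of only the 6 combined libraries the adjusted p for Cox6b2 was 0.052. Its partner Cox6b1 was higher in intestine, by 1.75, 1.23 and 1.59. The other isoform pairs moved less: Cox4i2, Cox7b2, Cox8b and Cox8c did not pass the minimum beside Cox4i1, Cox7b and Cox8a, and Atp5g2 (0.92, 0.13 and 0.73) was not called where Atp5g1 (2.23, 1.00 and 1.74) and Atp5g3 were.

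**Figure D5:**
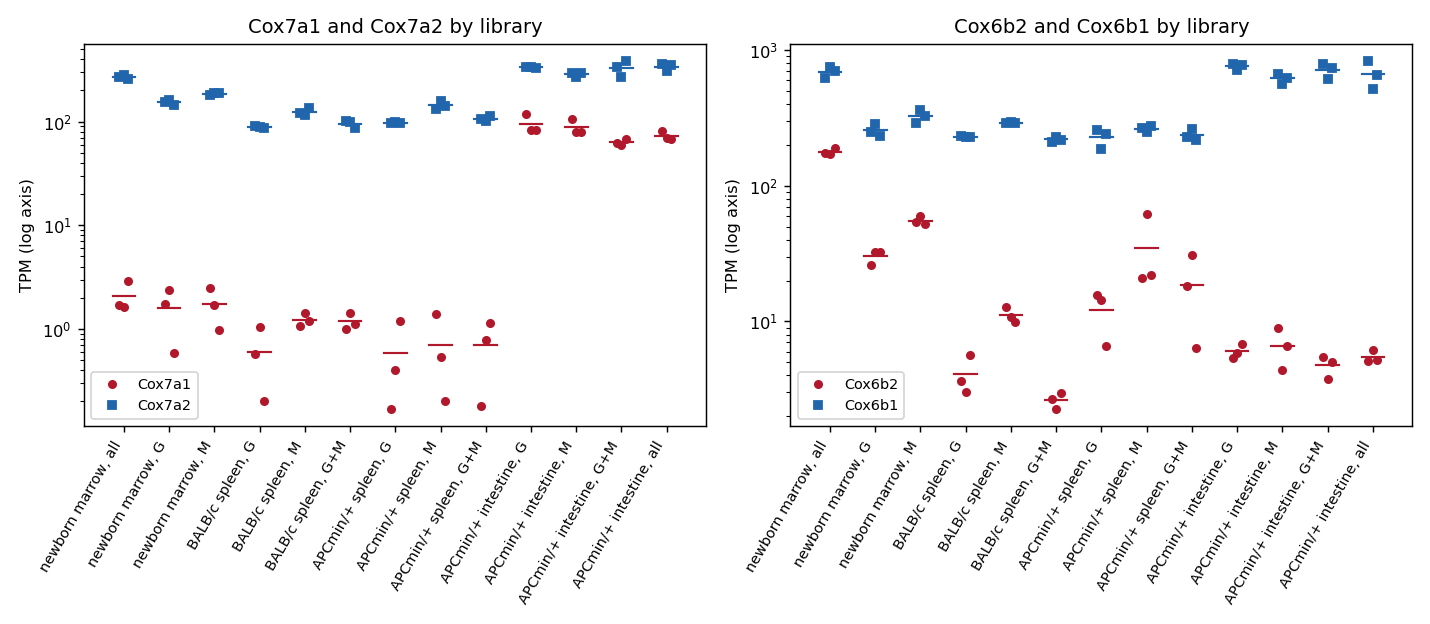
TPM (log axis) in each library (points) with group means (lines) for Cox7a1 and Cox7a2 (left) and Cox6b2 and Cox6b1 (right). Cox7a1 stands at 58.9 to 119 TPM in the 12 intestinal libraries and at most 2.89 elsewhere, and Cox6b2 is highest in all marrow cells, at 171 to 191.

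The RefSeq promoter table for GRCm38.p6, which holds 250 bases before to 50 after each start, matched 69 of the 84 nuclear members. The NRF1 motif, GCGC and TGCGC with 1 free base between them, on either strand, was in 17 of these (24.6%) and in 5.2% of 27025 genes. The ETS-type motif CCGGAAG, the kind that GABP binds, was in 16 (23.2%) and in 9.9% of genes. The 150 bases upstream of the tissue-restricted Cox7a1 (chr7:30184021-30184170, plus strand), of its partner Cox7a2 (chr9:79759854-79760003, minus strand) and of Cox6a1 (chr5:115348959-115349108, minus strand), a widespread subunit with both motifs, are shown for contrast, with matches in capitals.

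Cox7a1: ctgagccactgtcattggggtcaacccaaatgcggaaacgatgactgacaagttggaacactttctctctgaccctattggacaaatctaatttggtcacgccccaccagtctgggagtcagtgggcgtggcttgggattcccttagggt
Cox7a2: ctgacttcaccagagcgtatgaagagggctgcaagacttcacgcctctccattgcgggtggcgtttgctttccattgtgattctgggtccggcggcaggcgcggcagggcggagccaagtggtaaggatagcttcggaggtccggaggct
Cox6a1: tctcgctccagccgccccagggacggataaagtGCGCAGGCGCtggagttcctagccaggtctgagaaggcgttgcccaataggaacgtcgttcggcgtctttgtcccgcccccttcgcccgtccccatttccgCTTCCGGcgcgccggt

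The stretch of Cox7a1 held 4 CpG dinucleotides, that of Cox7a2 11 and that of Cox6a1 18. No match in these windows says only that the letters are not there. Cox6a1, with both motifs, had log2 fold changes of 1.77, 0.98 and 1.69 in G, M and combined sorts, close to those of Cox7a2 without either. This is a single picked pair, and whether the motifs bear on the fold changes of members was not tested.

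Between APCmin/+ and BALB/c spleens, which differ in strain, genotype and immune status in ways that cannot be told apart, few members differed. Of the mitochondrial members limma called 0 in the G sorts, where 5.77% of all genes were called lower, and 0 in the M sorts, with 1 under an unadjusted p of 0.05 in each, and with copies added the counts were 0 and 0. In the combined sorts 1 was lower in APCmin/+ mice, where 5.39% of all genes were: mt-Nd6, the complex I subunit encoded on the light strand, at 78.7, 108 and 71.6 TPM against 174, 210 and 279 (log2 fold change -1.34, SE 0.42, adjusted p = 0.0177). With copies added mt-Nd6 was again the 1 member called. That call was lost after median-ratio rescaling and without BALB/c library 3, APCmin/+ library 1 or APCmin/+ library 3, each leaving 0. The nuclear medians were 0.02, 0.08 and 0.08 in G, M and combined sorts, beside -0.15, -0.14 and -0.12 over all genes. Without the fold minimum 8, 17 and 6 nuclear members were higher and 4, 5 and 1 lower, where 6.82%, 11.3% and 7.3% of all genes were higher and 24.2%, 27.3% and 20.0% lower.

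Cox6b2 was the nuclear member called higher in APCmin/+ spleen in each sort, where 3.1%, 5.51% and 3.61% of all genes were called higher in G, M and combined sorts. Its log2 fold changes were 1.32 (adjusted p = 0.00618), 1.39 (adjusted p = 0.00302) and 2.19 (adjusted p = 3.36e-05). In the combined sorts Cox6b2 was 18.3, 30.7 and 6.36 TPM in APCmin/+ against 2.66, 2.27 and 2.98 in BALB/c libraries, without overlap. In fits of only the libraries compared the adjusted p of Cox6b2 was 0.0766, 0.0953 and 0.0623, and without APCmin/+ M library 2 it was 0.064 in the M sorts, which left 1 nuclear call there. The erythroid marker sum was 11599, 17546 and 9869 TPM in the APCmin/+ sorts and 5782, 6325 and 2827 in the BALB/c sorts, and its part in Cox6b2 was not tested. Cox6a2 was lower in the APCmin/+ M sort, where 5.97% of all genes were called lower, by a log2 fold change of -1.49 (SE 0.24, adjusted p = 2.05e-05). Without APCmin/+ M library 1, 1 mitochondrial member was called in the M sorts.

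Against newborn marrow, the G sort of APCmin/+ spleen held more mitochondrial and less nuclear RNA of the chain, from sources whose genotype and organ differ together and whose difference in age is not known, as the age of the spleen donors is not given. Of the mitochondrial members 12 were called higher and 0 lower, where 8.53% of all genes were called higher, with a median of 1.66 beside -0.05 over all genes. mt-Nd2, a membrane subunit of complex I with few shared runs, was 5912, 4857 and 5833 TPM in spleen against 1354, 1385 and 1361 in marrow (log2 fold change 2.01, SE 0.16, adjusted p = 1.55e-11). For mt-Cytb the log2 fold change was 1.88 (SE 0.17, adjusted p = 1.36e-10). The value of mt-Co2 (2.67) rests on 356 to 612 TPM against 41.9 to 173, and mt-Co3 (0.96) was the member not called. With copies added all 13 were called, with log2 fold changes of 1.15 to 2.01. Of the nuclear members 1 was called lower, Cox6b2 (-1.32, adjusted p = 0.00329), where 9.62% of all genes were, and at an adjusted p alone 66 were lower and 0 higher, where 28.1% of all genes were lower and 19.8% higher. Without spleen G library 1 there were 3 nuclear calls, and without spleen G library 3 there were 0.

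In the M sorts the same comparison called 6 mitochondrial members higher and 0 lower, where 11.1% of all genes were higher. They were mt-Co2 (1.55), mt-Nd2 (1.39), mt-Cytb (1.21), mt-Nd4 (1.14), mt-Nd3 (1.12) and mt-Nd4l (1.01), and the median of the 13 was 0.97, beside 0.07 over all genes. With copies added 4 were called. Limma called 0 nuclear members at 2-fold, where 4.64% of all genes were called lower, with 59 under an unadjusted p of 0.05, and 1 without spleen M library 2. At an adjusted p alone 2 were higher and 49 lower, where 26.2% and 16.9% of all genes were, with a median of -0.30.

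Other genes of the pathway were taken from lists by function, to be read against the 18.7%, 14.2% and 19.5% of all genes called higher in G, M and combined sorts and the 22.2%, 25.7% and 19.9% called lower. Between intestine and spleen G sorts 11 of 13 enzymes of the tricarboxylic acid cycle, which feeds the chain with NADH and succinate, were called higher and 0 lower. They were 8 and 10 in the M and combined sorts, and Suclg2 (2.42), Idh3a (2.30) and Suclg1 (2.00) had the largest log2 fold changes in G sorts. Of 20 electron carriers and their makers 10, 7 and 9 were higher in G, M and combined sorts. Pdss1 (2.51), which makes the tail of ubiquinone, Cycs (2.39), cytochrome c, and Etfa (2.22), an electron transfer flavoprotein, led in the G sorts, while Dhodh (-1.04), which passes electrons to ubiquinone, was lower in the M sorts. The Dhodh change was below 2-fold without spleen M library 1 (-0.95), without intestinal M library 1 (-0.80) and after median-ratio rescaling (-0.45). Of 45 assembly factors 8, 2 and 7 were higher, in each sort a smaller share than over all genes, with medians of 0.50, 0.05 and 0.43 beside -0.16, -0.43 and -0.15. Sco1 (2.06), Coa3 (1.74) and Sco2 (1.65) of complex IV had the largest changes in the G sorts. Foxred1 (-1.05) of complex I was lower in the M sorts, and below 2-fold without spleen M library 1 (-0.96), without intestinal M library 1 (-0.94) and after median-ratio rescaling (-0.42).

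Among genes that express and maintain mitochondrial DNA the share called was below that over all genes in both directions, a difference that was not tested. Of 32 such genes, 2 were called higher and 5 lower in intestinal G sorts, 0 and 4 in M sorts and 1 and 3 in combined sorts, with medians of -0.01, -0.40 and -0.01. Tk2, the mitochondrial thymidine kinase, was 4.01, 7.06 and 7.0 TPM in intestinal against 83.2, 55.0 and 81.6 in spleen G libraries (log2 fold change -3.41, SE 0.19, adjusted p = 3.45e-16), and Mterf1a (-1.61) and Polg (-1.36), the mitochondrial DNA polymerase, were lower too. Of 13 regulators 5 were higher and 3 lower in the G sorts. Ppargc1a, a coactivator known to raise mitochondrial gene expression, was 19.0, 14.8 and 13.9 TPM in intestinal against 1.25, 0.88 and 0.97 in spleen G libraries (log2 fold change 3.05, SE 0.20, adjusted p = 2.88e-14). Ppara (4.35) and Ppard (1.71), nuclear receptors of fatty acid metabolism, were higher as well, and Perm1 (-1.25), Gabpb2 (-1.17) and Gabpb1 (-1.17) lower. The Gabpb1 change was below 2-fold after median-ratio rescaling (-0.94). The 2 mitochondrial ribosomal RNAs were called in none of the 3 comparisons of intestine with spleen.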

How the data were processed

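RNA of cells sorted into Trizol was made into stranded mRNA libraries and sequenced as single reads of 75 bases, per the labels' protocols. Per the submitters' processing notes, the authors used bcl2fastq 2.18, STAR 2.6.1c, the mm10 build and RSEM. Neither the RSEM version nor the annotation is stated in the sources used here. The table that the authors deposited holds gene-level TPM.

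Libraries were grouped by their labels. The deposited TPM were analysed as log2(TPM + 1) for the 18466 of 53465 genes with at least 1 TPM in at least 3 libraries. Limma 3.58.1 in R 4.3.3 fitted 1 mean per group over all 39 libraries, with a variance trend and two-sided moderated tests (26 residual degrees of freedom), adjusted by Benjamini and Hochberg over all genes in each of 13 comparisons. The fit was tested on simulated data with independent noise and the same spread per gene in every group. That test cannot vouch for the fit where libraries are paired or groups differ in spread. Sums and figures were made in Python 3.11.15. Runs of 75 bases shared with other genes were searched in the reference sequences, and copies of mitochondrial members were added weighted by length. Replicate numbers correlated for each number only for the G and M sorts of APCmin/+ spleen (0.555, 0.375, 0.404) and of intestine (0.599, 0.432, 0.562), a pairing that comes from the data.

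The members, the gene lists and the tests were chosen with earlier results of these data known. Genes named are all mitochondrial members, the highest nuclear members of each complex, up to 4 extreme called nuclear members each way, isoform pairs, and up to 3 called genes each way of each list. Genes named beside a count of 5 or fewer, or as examples, were chosen after their values were seen. Alternatives were no fold minimum, no filter, a pseudocount of 0.1, rescalings, a fit of only the groups compared with or without the replicate block, and each library left out. Those that add chromosome 1 copies, or rescale outside them, were added after the data were seen.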

Additional observations from a re-analysis of the deposited data

Results flagged for a closer look

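Members whose G against M contrast differed between APCmin/+ intestine and APCmin/+ spleen, by a test of the difference itself, were Atp5a1 (1.01, adjusted p = 6.68e-05), Atp5g1 (1.23, adjusted p = 0.000456), Ndufc2 (1.1, adjusted p = 0.000108), Uqcr11 (1.03, adjusted p = 0.000308) and mt-Nd3 (-1.02, adjusted p = 0.0237), as log2 differences. In spleen the log2 fold changes of Atp5a1, Atp5g1, Ndufc2 and Uqcr11 were -0.65, -0.92, -0.88 and -0.77, and in intestine 0.35, 0.31, 0.22 and 0.26. For mt-Nd3 they were 1.62 in spleen and 0.60 in intestine. The 4 nuclear calls of 79 tested were about the share over all genes, of which 4.92% were called higher. None of the 4 was called after median-ratio rescaling. Atp5g1 and Ndufc2 were not called in the fit of only the groups compared without the replicate block. With its copy added mt-Nd3 was not called (-0.64).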

How the results depend on the processing

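Counts are members called of 13 mitochondrial (mt) or 79 nuclear (nuc). Of 1635 values of 107 single results for named genes, 1501 kept their direction and call, 118 lost and 16 gained the call, and 0 changed direction. Counts not given here stayed within 1.5 times. TPM keeps no depth, so no counting limit can be given.

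No fold minimum gave, for G against M, mt 4 and nuc 49 in marrow, nuc 63 in BALB/c spleen, mt 11 and nuc 68 in APCmin/+ spleen, and mt 8 and nuc 3 in intestine. It gave mt 12 (G), nuc 71 (M) and mt 9 (combined) for intestine against spleen, nuc 12 (G), mt 1 and nuc 22 (M) and nuc 7 (combined) for APCmin/+ against BALB/c, nuc 66 (G), mt 11 and nuc 51 (M) for spleen against marrow, and nuc 71 for the interaction. A pseudocount of 0.1 gave mt 0 for G against M in intestine and nuc 2 (G) and 1 (M) for spleen against marrow, and no filter gave mt 0 for the former.

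Median-ratio rescaling gave mt 11 for G against M in APCmin/+ spleen, mt 0 in intestine, mt 8 (G), nuc 64 (M) and mt 6 (combined) for intestine against spleen, mt 0 for the combined APCmin/+ against BALB/c sorts, and mt 2 and nuc 0 for the interaction. Rescaling outside mitochondrial genes gave mt 0 and nuc 8 for the interaction, and outside their copies as well mt 11 (APCmin/+ spleen) and mt 2 (intestine) for G against M, mt 8 (G), nuc 39 (M) and mt 6 (combined) for intestine against spleen, and mt 0 and nuc 15 for the interaction. Copies added gave mt 0 for G against M in intestine, the combined intestine against spleen sorts and the interaction.

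A fit of only the groups compared gave mt 0 and nuc 0 for G against M in APCmin/+ spleen, mt 0 in intestine, nuc 0, 1 and 0 for APCmin/+ against BALB/c (G, M, combined) and mt 0 and nuc 2 for the interaction. With the replicate block as well it gave mt 7 and nuc 1 for G against M in BALB/c spleen, mt 0 and nuc 0 in APCmin/+ spleen, mt 0 in intestine, mt 1 (G) and 5 (M) for intestine against spleen, nuc 0 (G), nuc 0 (M) and mt 0 and nuc 0 (combined) for APCmin/+ against BALB/c, mt 5 and nuc 0 (G) and mt 2 (M) for spleen against marrow, and mt 0 and nuc 2 for the interaction. Samples share only a number except between the G and M sorts of APCmin/+ spleen and of intestine.

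Leaving out each library in turn gave ranges of mt 0 to 1 and nuc 0 to 0 for G against M in marrow, mt 9 to 11 and nuc 1 to 2 in BALB/c spleen, mt 3 to 11 and nuc 0 to 3 in APCmin/+ spleen, and mt 0 to 1 and nuc 0 to 0 in intestine. In APCmin/+ spleen leaving out G library 1 gave nuc 3, M library 3 nuc 2, and G library 3 or M library 2 nuc 0. For intestine against spleen they were mt 1 to 6 and nuc 58 to 65 (G), mt 6 to 13 and nuc 15 to 27 (M) and mt 0 to 4 and nuc 55 to 60 (combined). For APCmin/+ against BALB/c they were mt 0 to 0 and nuc 1 to 1 (G), mt 0 to 1 and nuc 1 to 2 (M) and mt 0 to 1 and nuc 1 to 1 (combined). For spleen against marrow they were mt 11 to 12 and nuc 0 to 3 (G) and mt 4 to 8 and nuc 0 to 1 (M), and for the interaction mt 0 to 2 and nuc 1 to 22.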

Other observations

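All newborn marrow cells combined a high nuclear with a low mitochondrial level. Their nuclear sum of 18271, 19924 and 19009 TPM lay below the intestinal G libraries and within the range of the other intestinal libraries, while their mitochondrial sum of 29024, 28248 and 30732 TPM lay below every spleen and intestinal library. Cox6b2 was highest in the series there, at 173, 171 and 191 TPM, against 25.9 to 32.5 in the marrow G sort and 51.9 to 59.9 in the marrow M sort. The erythroid marker sum was 80666 ± 23780 TPM in these cells (SD, n = 3), against 2098 ± 471 in the G and 896 ± 219 in the M sort, and its part in the Cox6b2 level was not tested.

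The mitochondrial ribosomal RNAs, which carry poly(A) tails but are not read as protein, were higher in APCmin/+ spleen than in newborn marrow, mt-Rnr1 by 1.43 and 1.58 and mt-Rnr2 by 1.76 and 2.05 on the log2 scale in G and M sorts. Against BALB/c spleen mt-Rnr2 was higher by 1.18 in the G and 1.67 in the M sort. Of all genes 8.53% and 11.1% were called higher in these comparisons with marrow, and 3.1% and 5.51% in those with BALB/c spleen. No adjusted p is given here for the ribosomal RNAs, and the combined sorts are left out.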
